A study of Tremella fuciformis and Annulohypoxylon stygium and Tremella fuciformis
Annulohypoxylon stygium with 5 samples.

Results

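The transcripts of the jelly fungus Tremella fuciformis were compared between mycelia that had interacted with the ascomycete Annulohypoxylon stygium and mycelia grown alone. An assembled sequence (unigene) was taken as one of T. fuciformis when its larger FPKM value (fragments per kilobase of sequence, corrected for library size, as deposited) in the libraries of T. fuciformis after interaction and alone was at least 1 and exceeded its larger value in both single-fungus libraries of A. stygium at least 10 times. This held for 15354 of 42507 unigenes. Contigs of 1 assembly cluster were summed, which gave 8930 genes, 3462 of them made of several contigs and 5468 of 1 unigene. A SwissProt name was carried by 5441 of the genes, with 3394 different names, and the functions below are those of these nearest hits. Most names came from yeasts, 2291 from Schizosaccharomyces pombe and 1398 from Saccharomyces cerevisiae, and 384 from Cryptococcus neoformans, a relative of T. fuciformis.

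The study sequenced mycelia of both fungi, each after interaction, each alone and both together, with 1 library for each condition. The mycelia of T. fuciformis after interaction were wild type and were taken 1 week after the fungi had met. The dual mycelia, a mixture of both wild-type fungi, were also taken after 1 week, and the T. fuciformis mycelia grown alone were wild type and 2 weeks old. The sources used here do not give the total age of the mycelia after interaction, so that culture age and interaction cannot be told apart. Whether a library pooled several cultures, and how the partner was removed, are not given either.

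T. fuciformis is a basidiomycete that is cultivated together with A. stygium, an ascomycete that breaks down wood. T. fuciformis itself is known as a weak wood degrader, it can grow as a yeast or as hyphae, and it surrounds its cells with polysaccharides rich in mannose, xylose and glucuronic acid. A fungus takes up the sugars set free around it with permeases of the major facilitator family, and it spends much of its transcription on ribosomal proteins while it grows.

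Unigenes assigned to the partner held little of the library taken after interaction. They had at least 1 FPKM in an A. stygium library and at least 10 times their larger T. fuciformis value. Both sets were thus chosen on these same libraries, and the rule itself kept the share of the partner low. Unigenes of A. stygium made up 0.0626% of the summed FPKM after interaction, 59.0% in the dual mycelia and 0.0535% alone. Unigenes that reached 1 FPKM but were assigned to neither fungus, where sequences high in libraries of both fungi fall, made up 0.591% after interaction and 0.589% alone. Of the 18667 A. stygium unigenes, 22 reached 1 FPKM in T. fuciformis after interaction and 15 in T. fuciformis alone. The unigenes of T. fuciformis held 99.2% of the summed FPKM after interaction, 36.4% in the dual mycelia and 99.2% alone. Their nearest hit in the Nr database was a Tremellomycetes genus in 10730 of the 12496 unigenes whose hit named a genus (85.9%), and a genus of Xylariales, the order of A. stygium, in 31 (0.248%). Hits in other genera were not sorted further. The members just inside the limits were 254 unigenes with a larger level of 1 to 1.1 FPKM and 2 at 10 to 11 times A. stygium. Just outside lay 242 unigenes at 0.9 to 1 FPKM and 3 at 9 to 10 times.

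Levels below are FPKM rescaled so that the T. fuciformis unigenes sum to 1000000 in each library, called rescaled FPKM. Deposited values were multiplied by 1.53 after interaction, by 4.58 in the dual mycelia and by 1.57 alone. A log2 ratio is log2((level after interaction + 1)/(level alone + 1)), so a positive ratio means a higher level after interaction, and the added 1 makes the ratios of low genes smaller than they are. With 1 library in each group there was no spread between replicates, no test was possible, and every difference below is a difference between these libraries. The values of the dual mycelia stand beside the others as a further reading. Ratios of the dual mycelia and ratios after interaction would share the library grown alone, so the levels themselves are given side by side. Genes named for a high or low ratio were picked partly by their level alone. A dual level on the same side of that level is therefore no independent support. In such bulk samples, fewer cells of a kind and less RNA per cell cannot be told apart.

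Most transcripts of T. fuciformis had similar levels after interaction and alone. The median log2 ratio of the 8930 genes was -0.02, with quartiles of -0.25 and 0.31, and 86.5% lay within 2-fold. At least 4-fold higher after interaction were 181 genes (2.03%) and at least 4-fold lower were 70 (0.784%). At 2-fold, 851 genes (9.53%) were higher and 356 (3.99%) lower. Genes with a SwissProt name differed less. Of these 5441, 50 (0.919%) passed 4-fold as higher and 6 (0.110%) as lower, while 289 (5.31%) passed 2-fold as higher and 91 (1.67%) as lower. Their median was -0.05. This median and these shares are the values against which the lists of named genes are set below.

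The ratios depended strongly on the level of a gene. Among the 970 genes with a mean rescaled FPKM below 2, the median log2 ratio was 0.71, with 41.3% past 2-fold as higher and 19.1% as lower after interaction. Among the 2275 genes at 100 or above it was -0.09, with 1.93% higher and 1.23% lower. The rule takes a unigene by its higher library, so a member listed at 0 alone had to be higher after interaction. There were 356 genes listed at 0 alone and 186 listed at 0 after interaction. For each list the median of its members with a mean level of at least 10 is therefore plotted as well, and for some lists it is given in the text. Over the 4582 named genes of that level, 95 (2.07%) passed 2-fold as higher and 43 (0.938%) as lower, and the median was -0.08.

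**Figure D1:**
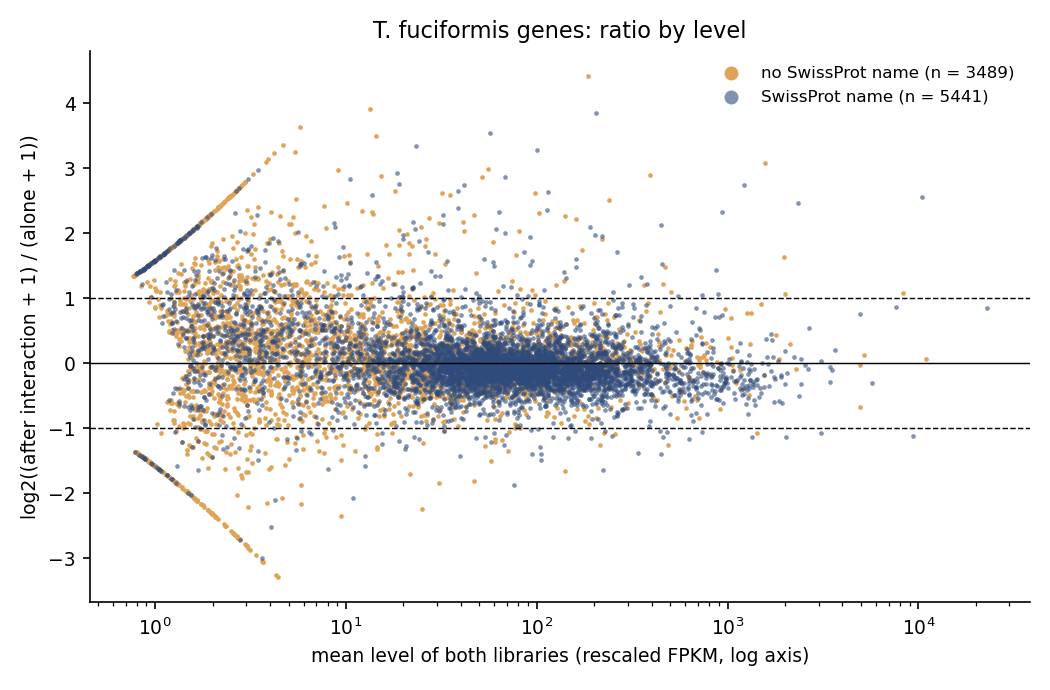
Each point is 1 T. fuciformis gene, with its mean rescaled FPKM over the libraries after interaction and alone on the x axis (log scale) and its log2 ratio, after interaction over alone, on the y axis; genes with and without a SwissProt name are coloured apart. The cloud is wide at low levels, where the median is 0.71 below 2 rescaled FPKM, and narrow around -0.09 at 100 and above.

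Functions were described with 44 lists of SwissProt names, which took 3211 genes. The median log2 ratio was above 0 in 20 lists and below 0 in 24. The highest medians were those of sugar and polyol transporters (0.61), of uncharacterized and vitamin-type membrane transporters (0.51), of cytochrome P450 enzymes (0.51) and of the oxygenase list (0.43). Next came the glyoxylate cycle, beta-oxidation and peroxisomes (0.35) and alcohol and aldehyde dehydrogenases and reductases (0.31). The lowest medians belonged to laccases and other wood-oxidizing enzymes (-0.48, 5 genes), cytosolic ribosomal proteins (-0.36), chitin and glucan synthesis (-0.31) and breakdown of chitin and 1,3-glucan (-0.21).

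**Figure D2:**
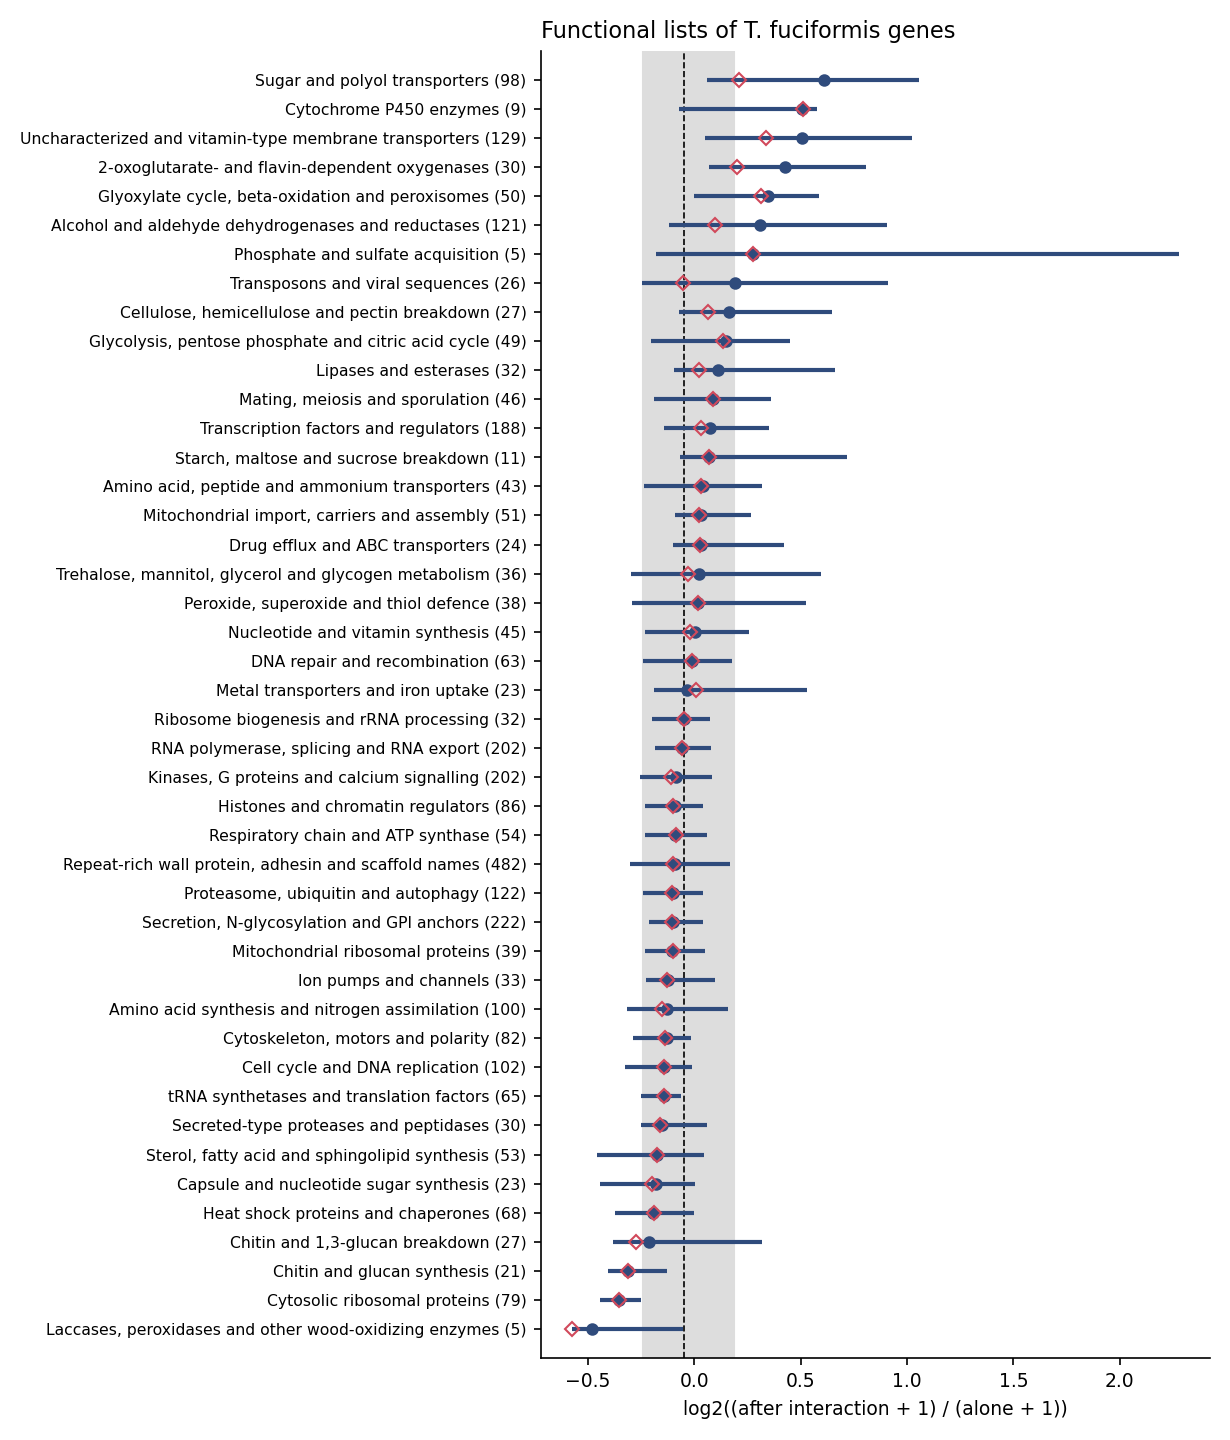
The 44 lists are ordered by the median log2 ratio of their members, after interaction over alone (x axis); dots are medians, bars run from the first to the third quartile, and red diamonds give the median of members with a mean level of at least 10. The dashed line and grey band are the median of -0.05 and the quartiles of all named genes, and sugar transporters (0.61) stand at the top while ribosomal proteins (-0.36) and chitin and glucan synthesis (-0.31) stand near the bottom.

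Sugar transporters had the highest median of all lists. Of 98 genes named as permeases for sugars or polyols, 28 (28.6%) were at least 2-fold higher after interaction, 4 of them at least 4-fold, against 5.31% of named genes. A single gene was at least 2-fold lower, and 77 of the 98 (78.6%) had a ratio above 0, against 43.6% of all named genes. Together the list held 0.431% of the T. fuciformis total after interaction, 0.479% in the dual mycelia and 0.338% alone. Many members were low, with 9 listed at 0 alone and 0 listed at 0 after interaction. Among the 31 with a mean level of at least 10 the median was 0.21, with 4 at least 2-fold higher and 0 lower. When the members were taken from the single libraries without a partner, so that genes below 1 FPKM alone drop out, 65 members had a median of 0.23.

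The largest ratios belonged to maltose permeases, which in S. cerevisiae import maltose together with protons. The gene CL3588, named after MAL31, had 33.4 rescaled FPKM after interaction, 40.4 in the dual mycelia and 3.54 alone, a log2 ratio of 2.92. Unigene1896, with the same name, had 19.2 after interaction, 9.16 in the dual mycelia and 1.82 alone, a log2 ratio of 2.84. In both genes the library grown alone had the lowest level. The name MAL31 was carried by 5 genes with a median ratio of 1.77, and 4 of them were at least 2-fold higher. MAL61, a further maltose permease name, was also carried by 5 genes, with a median of 1.18 and 3 at least 2-fold higher. Its most abundant gene, Unigene5308, had 31.5 rescaled FPKM after interaction, 18.5 in the dual mycelia and 13.4 alone. General alpha-glucoside permeases, which accept maltose and related sugars in S. cerevisiae, numbered 20 with a median of 0.49, 7 of them at least 2-fold higher. Among these, Unigene11092 had 27.6 after interaction, 71.7 in the dual mycelia and 12.4 alone. The only sugar transporter at least 2-fold lower was in the same family, Unigene17748, with 0.429 after interaction, 1.42 in the dual mycelia and 2.33 alone. Lactose permeases, a name from Kluyveromyces yeasts, numbered 21 with a median of 0.54, and 7 were at least 2-fold higher. Of all 98 sugar transporters, only 4 at least 2-fold higher had a mean level of at least 10. These were CL3588, Unigene1896, Unigene5308 and Unigene11092, so every raised lactose permease lay below that level. Over all genes, 41.3% with a mean level below 2 and 13.3% at 5 to 10 were at least 2-fold higher.

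The abundant sugar transporters showed smaller ratios, in both directions. CL1021, the most abundant, is named as a quinate permease although its Nr hit is a galactose transporter, and it had 953 rescaled FPKM after interaction, 1204 in the dual mycelia and 550.0 alone, a log2 ratio of 0.79. CL6985, a lactose permease, had 496 after interaction, 238 in the dual mycelia and 340 alone. CL4520, named after rco-3, a glucose transporter and sensor of Neurospora crassa, had 338 after interaction, 410 in the dual mycelia and 201 alone. These were higher after interaction by less than 2-fold. The myo-inositol transporter Unigene2461 had 219.6 after interaction, 169.6 in the dual mycelia and 122 alone, a log2 ratio of 0.84. STL1, which imports glycerol in S. cerevisiae, was named in genes on both sides. Unigene5421 had 216 after interaction, 236 in the dual mycelia and 352 alone. CL464 of that name had 586 after interaction, 557 in the dual mycelia and 611 alone, and CL5045 had 165 after interaction, 127 in the dual mycelia and 93.6 alone. HXT3, a low-affinity glucose transporter of S. cerevisiae, differed in order, since Unigene4682 had 72.4 after interaction, 424 in the dual mycelia and 107 alone.

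**Figure D3:**
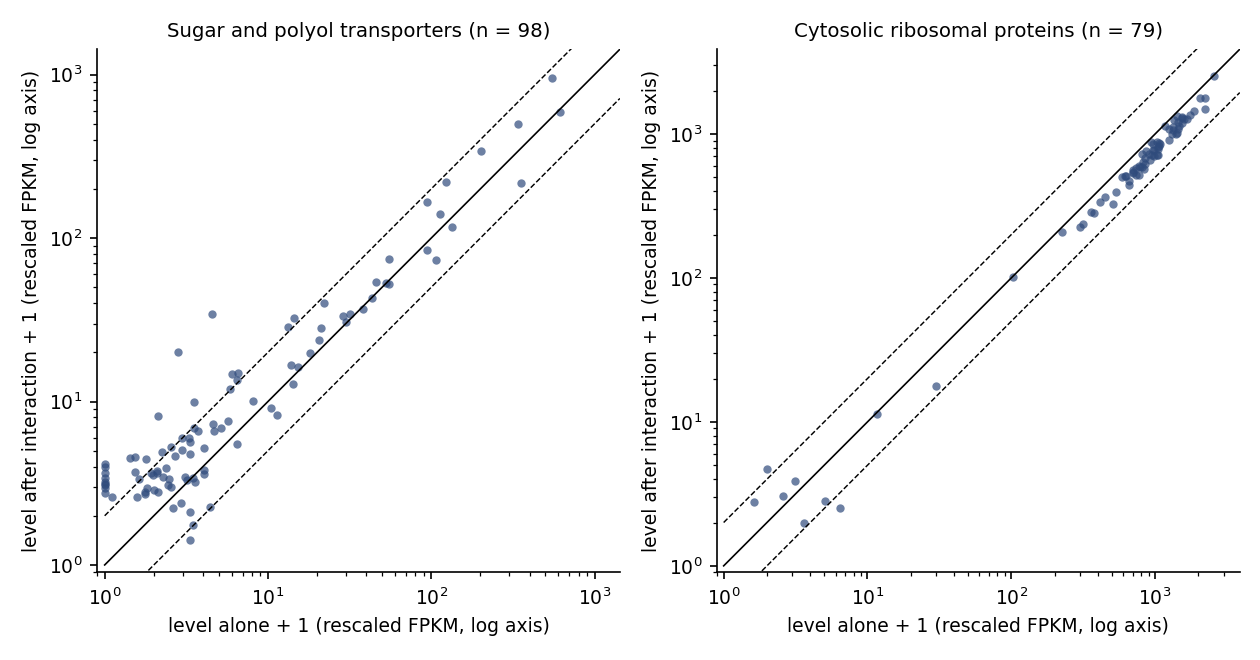
Level + 1 (rescaled FPKM, log axes) after interaction on the y axis against level + 1 alone on the x axis for the 98 sugar and polyol transporters and for the 79 cytosolic ribosomal proteins, 1 point a gene; the solid line marks equal levels and the dashed lines 2-fold. Sugar transporters lie mostly above the line (77 of 98), ribosomal proteins mostly below it (75 of 79) and within 2-fold.

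Enzymes that release sugars outside the cell were higher in part. The list of starch, maltose and sucrose breakdown had 11 genes with a median of 0.07, of which 1 was at least 2-fold higher. That gene, the alpha-glucosidase Unigene3331, which cuts glucose from maltose and related sugars, had 142 rescaled FPKM after interaction, 113 in the dual mycelia and 47.0 alone, a log2 ratio of 1.58. The glucoamylase Unigene3373, which takes glucose from starch, had 61.6 after interaction, 54.7 in the dual mycelia and 30.9 alone. The most abundant member, the alpha-amylase CL308, had nearly equal levels after interaction (2478) and alone (2365) and was lower in the dual mycelia (1302). In the opposite direction, the alpha-glucosidase CL456 had 136 after interaction, 654 in the dual mycelia and 210.1 alone. The list of cellulose, hemicellulose and pectin breakdown had 27 genes, a median of 0.16, 4 at least 2-fold higher and 1 lower. Of the 13 with a mean level of at least 10, 2 were at least 2-fold higher and 0 lower. The highest ratio of a member with a level of at least 10 was that of the beta-glucosidase 1B CL4991, which splits cellobiose, with 42.6 after interaction, 45.6 in the dual mycelia and 16.2 alone. Its ratio was 1.34 for the sum of the cluster and ran from 0.70 to 1.74 over its 4 contigs. Wood-oxidizing enzymes stood lower. The laccase CL8222, a copper oxidase of phenols, had 334 after interaction, 273 in the dual mycelia and 499 alone. Galactose oxidase CL7568, which makes hydrogen peroxide, had 366 after interaction, 507 in the dual mycelia and 627 alone. All 5 members of the list lay within 2-fold.

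Transporters of unknown substrate or of vitamins and related compounds also had a raised median. Of 129 genes, 34 (26.4%) were at least 2-fold higher after interaction, against 5.31% of named genes, and 8 of them were at least 4-fold higher. As lower, 4 (3.10%) passed 2-fold, against 1.67% of named genes, and 0 passed 4-fold. The median of 0.51 was 0.34 among the 59 members with a mean level of at least 10, of which 11 were at least 2-fold higher and 2 lower, and 0.18 among the 103 members taken from the libraries without a partner. The list held 0.573% of the total after interaction, 0.502% in the dual mycelia and 0.421% alone. The name C11D3.18C, an S. pombe transporter of the major facilitator family, was carried by 9 genes with a median of 0.58. Unigene7012 of that name had 105 rescaled FPKM after interaction, 249.7 in the dual mycelia and 8.11 alone, a log2 ratio of 3.54. Unigene7355 had 38.6 after interaction, 294 in the dual mycelia and 9.70 alone. Both were higher in the dual mycelia than after interaction. The permease Unigene8213, whose database hits lie in the family that imports uridine, thiamine and allantoin, had 67.6 after interaction, 63.1 in the dual mycelia and 9.92 alone. The choline transport protein CL3321 had 52.9 after interaction, 89.3 in the dual mycelia and 11.2 alone. The ABC transporter CL6773, named after pmd1, which exports leptomycin B in S. pombe, had 349 after interaction, 301 in the dual mycelia and 88.7 alone, a ratio of 1.97. High-affinity nicotinic acid transporters, importers of a vitamin used to make NAD, were 3 genes with a median of 1.63, all at levels below 10. Their highest level was that of Unigene5125 in the dual mycelia (8.98), with 2.88 after interaction and 0.456 alone.

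A phosphate importer and an acid phosphatase were higher after interaction. PHO84, the high-affinity phosphate importer of the yeast plasma membrane, was named in Unigene3813, with 73.0 rescaled FPKM after interaction, 60.6 in the dual mycelia and 10.01 alone, a log2 ratio of 2.75. The acid phosphatase Unigene6122, an enzyme that frees phosphate from organic compounds, had 54.2 after interaction, 17.0 in the dual mycelia and 10.4 alone. The vacuolar transporter chaperone VTC1, a subunit of the complex that stores phosphate as polyphosphate in yeast, was named in Unigene2145, which had 65.5 after interaction, 10.5 in the dual mycelia and 11.7 alone. PHO84 was thus high in both libraries with a partner, and VTC1 was high after interaction and at the level of the library grown alone in the dual mycelia. The list of phosphate and sulfate acquisition had 5 genes with a median of 0.27, of which PHO84 and the acid phosphatase were at least 2-fold higher. The sulfate permeases CL1844, with 47.4 after interaction, 31.6 in the dual mycelia and 39.1 alone, and CL3214, with 39.96 after interaction, 45.8 in the dual mycelia and 48.0 alone, lay within 2-fold. So did the fifth member, CL4986, named as a thiamine-repressible acid phosphatase, with 10.2 after interaction, 21.8 in the dual mycelia and 11.6 alone. VTC1 is in none of the lists.

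Of 23 metal transporters and iron uptake genes, 1 passed 2-fold as higher and 4 as lower, and the median was -0.03. Zinc-regulated transporter 1, a zinc importer of yeast, was named in CL1060 with 3.55 after interaction, 9.30 in the dual mycelia and 18.1 alone, a log2 ratio of -2.07. Unigene5359 has the same name and had 0.153 after interaction, 12.6 in the dual mycelia and 2.44 alone. Ferric reductases, which reduce iron(III) before uptake, were the other lower members. CL89 had 21.2 after interaction, 24.7 in the dual mycelia and 58.4 alone, and Unigene10526 had 57.4 after interaction, 32.8 in the dual mycelia and 152 alone. The cluster CL3536, which took its name from ferric reductase 3, stood on the other side with 204 after interaction, 316 in the dual mycelia and 81.7 alone. Its 4 contigs carried 4 different SwissProt entries, and the contig named ferric reductase 3, CL3536.Contig3, had 27.9 after interaction, 13.0 in the dual mycelia and 7.07 alone. The copper transporter ctr4 (Unigene3229), the most abundant of the list, had 1070.2 after interaction, 845 in the dual mycelia and 655 alone.

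Amino acid, peptide and ammonium transporters (43 genes) had a median of 0.04, with 4 at least 2-fold higher and 2 lower. Of the 24 with a mean level of at least 10, 1 was at least 2-fold higher and 1 lower. The peptide transporter PTR2 (Unigene9614) had 149.8 after interaction, 67.2 in the dual mycelia and 67.7 alone. The dicarboxylic amino acid permease Unigene409, which imports glutamate and aspartate in yeast, had 13.9 after interaction, 3.44 in the dual mycelia and 31.6 alone. Drug efflux and ABC transporters (24 genes) had a median of 0.03, with 1 at least 2-fold higher and 1 lower. The highest ratio in this list was 1.04. The ABC transporter CL6773, named after pmd1 and described above with a larger ratio, is not among these 24 genes.

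Alcohol and aldehyde dehydrogenases and reductases, which interconvert alcohols, aldehydes and ketones, had a raised median. Of 121 such genes, 28 (23.1%) were at least 2-fold higher after interaction, 3 of them at least 4-fold, while 2 (1.65%) passed 2-fold as lower. Among all named genes these shares were 5.31% and 1.67%, and 2.07% and 0.938% at a mean level of at least 10. The median was 0.31 in all and 0.10 among the 68 members with a mean level of at least 10, of which 8 were at least 2-fold higher and 0 lower. Unigene3520, of the aldo/keto reductase family, had 43.3 rescaled FPKM after interaction, 37.9 in the dual mycelia and 3.36 alone, a log2 ratio of 3.34. The aryl-alcohol dehydrogenase Unigene8456, an enzyme type that reduces aromatic aldehydes in wood-decay fungi, had 197 after interaction, 2115 in the dual mycelia and 30.9 alone. The aldehyde dehydrogenase Unigene13987 had 321 after interaction, 415 in the dual mycelia and 81.4 alone, a ratio of 1.97. The aryl-alcohol dehydrogenase was thus far higher in the dual mycelia than in either other library, whereas Unigene3520 was similar in both libraries with a partner. Also highest in the dual mycelia were the alcohol dehydrogenase Unigene4052, with 14.7 after interaction, 296.8 in the dual mycelia and 5.31 alone, and the aldo-keto reductase yakc (CL7659), with 10.9 after interaction, 118 in the dual mycelia and 4.24 alone. The most abundant member, the succinate-semialdehyde dehydrogenase CL559, had 649 after interaction, 601 in the dual mycelia and 584 alone. The list held 0.630% of the total after interaction, 1.06% in the dual mycelia and 0.544% alone, and without the aryl-alcohol dehydrogenase it held 0.611% after interaction, 0.845% in the dual mycelia and 0.541% alone.

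Outside that list, formate dehydrogenase (CL3589), which oxidizes formate to carbon dioxide, had 191 after interaction, 163 in the dual mycelia and 36.2 alone, a log2 ratio of 2.37. The D-xylulose reductase Unigene44, a step in the use of xylose and its polyol, had 110.0 after interaction, 365 in the dual mycelia and 26.7 alone. The cytosolic aspartate aminotransferase CL5876 had 37.6 after interaction, 186 in the dual mycelia and 7.56 alone. The gene with the largest ratio of all named genes was CL8124, with 381 after interaction, 437 in the dual mycelia and 25.4 alone, a log2 ratio of 3.86. Its SwissProt name, isopenicillin N epimerase component 2, refers to an enzyme of cephalosporin synthesis in Acremonium chrysogenum. Its protein family is CoA-transferase family III, and its Nr hit is a hypothetical protein of Colletotrichum simmondsii, which is outside the Tremellomycetes. Unigene7021, with a Fe(2+)- and 2-oxoglutarate-dependent dioxygenase domain, had 182 after interaction, 194 in the dual mycelia and 17.8 alone. These genes all had their lowest level in the library grown alone, but they were picked by their ratio or after their values were seen.

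**Figure D4:**
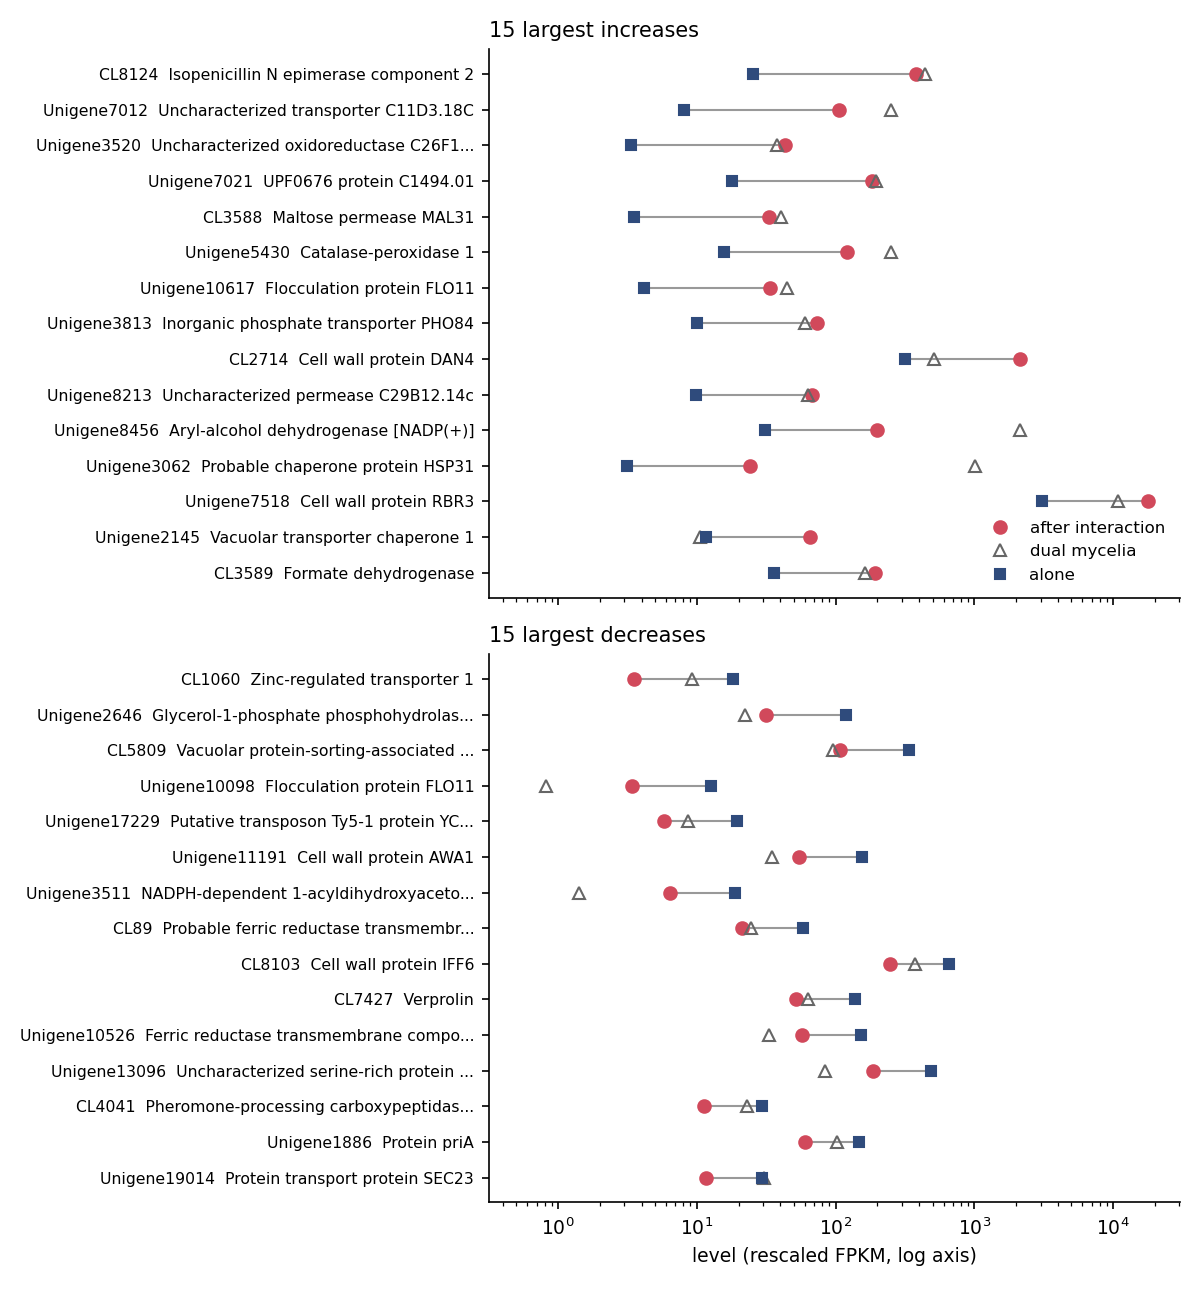
Rescaled FPKM (log axis) of the 15 largest increases and, below them, the 15 largest decreases of the log2 ratio among genes with a SwissProt name and a level of at least 10 in 1 of the libraries; circles are the library after interaction, triangles the dual mycelia and squares the library grown alone. The increases reach from 3.86 for CL8124 downward, and several of them, such as Unigene8456 and Unigene3062, are highest in the dual mycelia.

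Cytochrome P450 enzymes, which oxidize many small molecules, had 9 members with a median of 0.51, 2 at least 2-fold higher and 0 lower. Unigene11669, named after DIT2 of S. cerevisiae, which makes dityrosine for the wall of yeast spores, had 1569 rescaled FPKM after interaction, 1646 in the dual mycelia and 311 alone, a log2 ratio of 2.33. DIT1, the enzyme before it in the yeast pathway, was named in Unigene967, with 131 after interaction, 158 in the dual mycelia and 39.4 alone, a log2 ratio of 1.71. Both genes were high in both libraries with a partner. With Unigene11669 the P450 list held 0.260% of the total after interaction, 0.217% in the dual mycelia and 0.158% alone. Without it the order turned round, with 0.104% after interaction, 0.0528% in the dual mycelia and 0.127% alone, since the next most abundant member, CL5477, named after an alkane-hydroxylating P450 of Candida maltosa, had 565 after interaction, 220 in the dual mycelia and 882 alone. The 7 members in clusters with a single SwissProt entry had a median of 0.22. The list of oxygenases of other families (30 genes) had a median of 0.43, with 5 at least 2-fold higher and 1 lower, and 0.20 among the 17 of at least 10. The list also holds CL8124 and CL1659, the genes named isopenicillin N epimerase component 2, which are not oxygenases. The other 28 genes had a median of 0.41, with 4 at least 2-fold higher and 1 lower, and 0.09 among the 15 of at least 10. Unigene2409, named bifunctional P-450:NADPH-P450 reductase with an e-value of 1.7e-13, lay outside both lists and had 107 after interaction, 67.7 in the dual mycelia and 20.4 alone.

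Fatty acid breakdown and peroxisomal genes were higher as a group by less than 2-fold. The list of the glyoxylate cycle, beta-oxidation and peroxisomes had 50 genes with a median of 0.35, although only 4 passed 2-fold as higher and 2 as lower. A ratio above 0 was found in 37 (74%), against 43.6% of all named genes. Among the 45 members of at least 10 the median was 0.31, with 1 at least 2-fold higher and 2 lower. The list held 0.662% of the total after interaction, 0.535% in the dual mycelia and 0.542% alone. Carnitine O-acetyltransferase, which carries acetyl groups between compartments, had its highest ratio in Unigene19018, with 41.9 rescaled FPKM after interaction, 36.01 in the dual mycelia and 12.04 alone, a log2 ratio of 1.72. The peroxisomal hydratase-dehydrogenase-epimerase Unigene8402, the second enzyme of beta-oxidation, had 228 after interaction, 275 in the dual mycelia and 123 alone. The 3-ketoacyl-CoA thiolase Unigene11320, its last enzyme, had 415 after interaction, 349 in the dual mycelia and 229 alone. Malate synthase CL4656, of the glyoxylate cycle, had 161 after interaction, 152 in the dual mycelia and 103 alone. The 3 enzymes after carnitine O-acetyltransferase had log2 ratios of 0.64 to 0.88. Isocitrate lyase CL1756, the enzyme before malate synthase in the glyoxylate cycle, had nearly equal levels, with 197 after interaction, 220.03 in the dual mycelia and 199 alone. Acyl-CoA oxidase 2 (Unigene8242), the first enzyme of peroxisomal beta-oxidation, had 139.8 after interaction, 121 in the dual mycelia and 114 alone. The most abundant member, CL5208, had 936 after interaction, 359 in the dual mycelia and 731 alone, and its name acyl-CoA oxidase 4 rests on an e-value of 1.6e-06 while its Nr and KOG hits are a glutaryl-CoA dehydrogenase of lysine breakdown. The lower members were both named peroxisome assembly protein 12. Unigene8774 had 90.5 after interaction, 108 in the dual mycelia and 202 alone, and Unigene8775 had 67.2 after interaction, 65.9 in the dual mycelia and 136 alone.

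Among 49 genes of glycolysis, the pentose phosphate pathway and the citric acid cycle the median was 0.15, with 4 at least 2-fold higher and 0 lower. Of the 42 with a mean level of at least 10, 1 was at least 2-fold higher. The citric acid cycle enzyme 2-oxoglutarate dehydrogenase (CL3473) had 342 after interaction, 182 in the dual mycelia and 158.7 alone, a log2 ratio of 1.102. The succinyltransferase subunit of the same complex (Unigene5526) had 243 after interaction, 122 in the dual mycelia and 142 alone. The mitochondrial isocitrate dehydrogenase Unigene12724, the step before it, had 331 after interaction, 295 in the dual mycelia and 168 alone. Glycolytic genes of high level lay closer to equal. Triosephosphate isomerase CL2899 had 5153 after interaction, 3305 in the dual mycelia and 6338 alone, and glyceraldehyde-3-phosphate dehydrogenase Unigene83 had 3926 after interaction, 2989 in the dual mycelia and 3396 alone. Pyruvate decarboxylase, which leads to ethanol, was lower in Unigene11677, with 1400 after interaction, 1850 in the dual mycelia and 2116 alone. Lipases and esterases had 32 members with a median of 0.11, 6 at least 2-fold higher and 1 lower. Among the 16 with a mean level of at least 10 the median was 0.02, and only CL6007 was at least 2-fold higher. CL6007, with contigs named lipase 4 and lipase 1, had 505 after interaction, 432 in the dual mycelia and 200.03 alone.

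A set of genes named after unstudied S. pombe proteins was higher after interaction and higher still in the dual mycelia. It was chosen after the values had been seen and belongs to no list. C11D3.14c and C11D3.15, whose KOG hit is an oxoprolinase, the enzyme that opens the ring of oxoproline, were the names of 4 and 11 genes with medians of 1.71 and 0.31. Unigene6778 had 99.7 rescaled FPKM after interaction, 449 in the dual mycelia and 23.0 alone, a log2 ratio of 2.07. Unigene2459 had 51.0 after interaction, 304 in the dual mycelia and 16.5 alone, and CL4023 had 31.9 after interaction, 176 in the dual mycelia and 7.70 alone. UPF0317 protein C5H10.01 was the name of Unigene3545, with 146 after interaction, 517 in the dual mycelia and 37.5 alone. In each of these the order of the libraries was dual, after interaction, alone. CL2161, named C11D3.15 as well, went the other way, with 14.5 after interaction, 19.7 in the dual mycelia and 33.6 alone.

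Enzymes that build the cell wall were slightly lower. The list of chitin and glucan synthesis had 21 genes with a median of -0.31, but 0 passed 2-fold in either direction. Of these, 18 (85.7%) were below 0, against 56.4% of all named genes. The 1,3-beta-glucan synthase FKS1 (CL6783) had 133 rescaled FPKM after interaction, 98.7 in the dual mycelia and 174 alone. The alpha-1,3-glucan synthase mok13 (Unigene9405) had 113 after interaction, 103 in the dual mycelia and 153 alone. CL5493, with contigs named chitin synthase 6 and 8, had 180.0 after interaction, 177 in the dual mycelia and 258 alone. All 3 were lowest in the dual mycelia and highest alone. The chitin synthase export chaperone (Unigene2650), which in yeast lets a chitin synthase leave the endoplasmic reticulum, was the most abundant member, with 280.2 after interaction, 246 in the dual mycelia and 356 alone. Among the 3 members above 0, chitin synthase 5 (Unigene17373) had 24.1 after interaction, 5.08 in the dual mycelia and 14.3 alone. The 27 genes of chitin and 1,3-glucan breakdown had a median of -0.21, with 1 at least 2-fold higher and 0 lower.

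Capsule and nucleotide sugar synthesis had 23 members with a median of -0.18, and 17 (73.9%) were below 0, against 56.4% of all named genes. At least 2-fold higher were 2 (8.70%), against 5.31% of named genes, and 0 were lower. Among the 20 members with a mean level of at least 10, 0 passed 2-fold in either direction. In the whole list 2 members were listed at 0 alone. Mannose-1-phosphate guanyltransferase (CL1735), which makes the GDP-mannose used for mannans, had 181 after interaction, 90.7 in the dual mycelia and 284 alone, a log2 ratio of -0.64. Phosphoglucomutase (CL7227), the most abundant, had 1627 after interaction, 1218 in the dual mycelia and 1637 alone. Beta-1,2-xylosyltransferase 1, which adds xylose to capsule polysaccharide in Cryptococcus neoformans, was the name of 8 genes with a median of -0.22, of which 2 were above 0 and 0 passed 2-fold. CL7340 had 184 after interaction, 103 in the dual mycelia and 260 alone. The cluster CL1577, the most abundant of the name, also holds contigs named as an RNA polymerase subunit, and its xylosyltransferase contig of higher level, CL1577.Contig5, had 79.2 after interaction, 92.2 in the dual mycelia and 72.6 alone.

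Several of the most abundant transcripts carried the names of repeat-rich wall proteins. These names (FLO11, DAN4, RBR3, AWA1 and the like) rest on serine- and threonine-rich repeats and on weak matches, since only 93 of the 482 hits had an e-value of at most 1e-20. The 482 genes had a median of -0.09, with 23 past 2-fold as higher, including 7 past 4-fold, and 13 as lower. They held 13.2% of the T. fuciformis total after interaction, 11.9% in the dual mycelia and 9.96% alone. Most of that difference lay in CL4679, named DAN4, with 29407 rescaled FPKM after interaction, 18454 in the dual mycelia and 16382 alone, and in Unigene7518, named RBR3, with 17912 after interaction, 10742 in the dual mycelia and 3046 alone. Without this pair the list held 8.43% after interaction, 8.97% in the dual mycelia and 8.01% alone. The log2 ratio of Unigene7518 was 2.56, and its level alone was the lowest of the 3 libraries. CL6552 and Unigene13089, named FLO11 but with a ricin-type lectin domain, were highest in the dual mycelia. CL6552 had 9898 after interaction, 16596 in the dual mycelia and 5425 alone, and Unigene13089 had 6181 after interaction, 9807 in the dual mycelia and 3662 alone. CL2714, named DAN4 but of the thaumatin family, a family of secreted proteins that plants raise against pathogens and that fungi have as well, had 2114 after interaction, 512 in the dual mycelia and 314 alone, a ratio of 2.75. Unigene4641, also named RBR3, had 3943 after interaction, 1076 in the dual mycelia and 712 alone. Lower after interaction were Unigene11191, named AWA1, with 54.4 after interaction, 34.6 in the dual mycelia and 155 alone, and CL8103, named IFF6, with 247 after interaction, 375 in the dual mycelia and 653 alone. The 15 most abundant genes of T. fuciformis together held 12.5% of its total after interaction, 11.7% in the dual mycelia and 9.42% alone.

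Cytosolic ribosomal proteins were lower as a group, nearly all by a small and similar amount. Of 79 genes, 75 (94.9%) had a ratio below 0, against 56.4% of all named genes. The median was -0.36 and the quartiles were -0.44 and -0.25. All but 2 lay within 2-fold. At least 2-fold higher was Unigene12266 (S22), and at least 2-fold lower was Unigene11631, also named S22, which had 1.52 rescaled FPKM after interaction, was listed at 0 in the dual mycelia and had 5.41 alone. The 72 members of at least 10 had the same median, with 0 past 2-fold. Ribosomal proteins held 5.78% of the T. fuciformis total after interaction, 4.84% in the dual mycelia and 7.26% alone. The 4 members above 0 were Unigene12266, Unigene5776 (L12), Unigene7297 (S19) and CL3963 (L15), all low, and Unigene12266 had 3.69 after interaction, 6.05 in the dual mycelia and 0.990 alone. The most abundant ribosomal gene, L41 (CL5750), had 2536 after interaction, 2257 in the dual mycelia and 2583 alone. Translation factors and tRNA enzymes (65 genes) had a median of -0.14, with 12 above 0 and 0 past 2-fold, and elongation factor 1-alpha (CL4361), which brings aminoacyl-tRNAs to the ribosome, had 3096 after interaction, 2400 in the dual mycelia and 3792 alone. Mitochondrial ribosomal proteins (39 genes) had a median of -0.11. The member that was at least 2-fold higher there, L19 (Unigene168), had 236 after interaction, 528 in the dual mycelia and 83.5 alone.

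The lists of the basic cell machinery had small medians, to be set against -0.05 for all named genes. RNA polymerases and splicing (202 genes) had a median of -0.06, protein kinases and signalling (202 genes) -0.08, histones and chromatin (86 genes) -0.09, the proteasome and ubiquitin (122 genes) -0.10, the cytoskeleton (82 genes) -0.13 and cell cycle and DNA replication (102 genes) -0.14. Together with DNA repair (63 genes, -0.01) and mitochondrial import (51 genes, 0.03) these lists had 0 to 3 genes at least 2-fold higher each. In the cytoskeleton and the cell cycle lists, 76.8% and 75.5% of members had a ratio below 0, against 56.4% of all named genes. Respiratory chain and ATP synthase genes (54 genes) had a median of -0.09, with 0 at least 2-fold higher and 2 lower. The alternative oxidase Unigene8344, which bypasses part of the respiratory chain, had 103 after interaction, 384 in the dual mycelia and 187 alone. Transcription factors (188 genes) had a median of 0.07, with 6 (3.19%) at least 2-fold higher and 5 (2.66%) lower, against 5.31% and 1.67% of named genes. Among the 131 with a mean level of at least 10, 3 were at least 2-fold higher and 0 lower. Of the higher ones, ARO80 (Unigene3952), which in S. cerevisiae activates genes for aromatic amino acid breakdown, had 22.3 after interaction, 29.0 in the dual mycelia and 8.72 alone. The nirA gene CL2210, named after the activator of nitrate use in Emericella nidulans, had 20.6 after interaction, 27.6 in the dual mycelia and 7.83 alone.

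Secretion, N-glycosylation and GPI anchor genes (222 genes) had a median of -0.10 and held 3.31% of the total after interaction, 2.79% in the dual mycelia and 4.32% alone. Much of that difference was in CL1929, named after gpi1, which acts in the first step of GPI anchor synthesis in yeast, with 5936 after interaction, 2796 in the dual mycelia and 12895 alone, a log2 ratio of -1.12. Without it the list held 2.71% after interaction, 2.51% in the dual mycelia and 3.03% alone.

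Stress proteins had members on both sides. Heat shock proteins and chaperones (68 genes) had a median of -0.19, with 1 at least 2-fold higher and 2 lower. The chaperone HSP31 (Unigene3062), which in yeast guards against reactive aldehydes and oxidative stress, had 24.2 rescaled FPKM after interaction, 1005 in the dual mycelia and 3.16 alone, a log2 ratio of 2.60. The disaggregase HSP104 (CL3565, with 1 contig named as a thymidylate synthase) had 117 after interaction, 246 in the dual mycelia and 184 alone. Both genes named 12 kDa heat shock protein, a membrane-binding stress protein of yeast, were higher, CL2474 with 875 after interaction, 1344 in the dual mycelia and 486 alone and CL5393 with 417 after interaction, 586 in the dual mycelia and 220.4 alone. Peroxide, superoxide and thiol defence (38 genes) had a median of 0.02, with 3 at least 2-fold higher and 1 lower. Of the 35 with a mean level of at least 10, 1 was at least 2-fold higher and 0 lower. Catalase-peroxidase 1 (Unigene5430) had 120.1 after interaction, 252 in the dual mycelia and 15.6 alone, a ratio of 2.87. Catalase-1 (CL1935) had 66.0 after interaction, 45.4 in the dual mycelia and 32.6 alone. Against these, glutathione peroxidase CL8008 had 55.8 after interaction, 177 in the dual mycelia and 101 alone, and the copper-zinc superoxide dismutase CL6871 had 353 after interaction, 407 in the dual mycelia and 569 alone.

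Among named genes with a level of at least 10 in 1 of the libraries, the largest decreases were smaller in size than the largest increases. After the zinc transporter CL1060, the next was the glycerol-1-phosphate phosphohydrolase Unigene2646, the last enzyme of glycerol synthesis, with 31.8 rescaled FPKM after interaction, 22.4 in the dual mycelia and 120 alone, a log2 ratio of -1.88. CL5809, a cluster with contigs named after VPS25 and after a serine-rich protein, had 108 after interaction, 96.0 in the dual mycelia and 337 alone. Verprolin (CL7427), which organizes actin in yeast, had 51.4 after interaction, 63.5 in the dual mycelia and 137 alone. Each of these, picked for a low ratio, was highest in the library grown alone. The reductase Unigene3511, which makes lysophosphatidic acid for lipid synthesis, had 6.36 after interaction, 1.42 in the dual mycelia and 18.7 alone. The delta(12) fatty acid desaturase Unigene9669, which makes linoleic acid, had 386 after interaction, 480.2 in the dual mycelia and 867 alone, a ratio of -1.17. Sterol, fatty acid and sphingolipid synthesis as a list (53 genes) had a median of -0.18, with 1 at least 2-fold higher and 1 lower.

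KOG classes, a second annotation in the same table, gave a similar ordering. A KOG hit was carried by 5269 genes, 839 of them in more than 1 class, and 287 (5.45%) passed 2-fold as higher and 82 (1.56%) as lower. In the class of secondary metabolite enzymes 32 of 165 genes (19.4%) were at least 2-fold higher and 5 (3.03%) lower, with a median of 0.35. Among the 102 genes of this class with a mean level of at least 10 the median was 0.09 and 11 were at least 2-fold higher. Carbohydrate transport and metabolism had 42 of 396 (10.6%) at least 2-fold higher and energy production 25 of 236 (10.6%), with medians of 0.03 and 0.07. At a mean level of at least 10 these counts were 12 of 277 and 7 of 189, with medians of -0.03 and -0.006. Over all genes with a KOG hit of that level, 97 of 4493 were at least 2-fold higher. At the other end, translation and ribosome had 2 of 296 higher and 3 lower, and the cytoskeleton 1 of 162 higher and 1 lower. The translation class held 8.76% of the total after interaction, 7.59% in the dual mycelia and 10.6% alone.

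**Figure D5:**
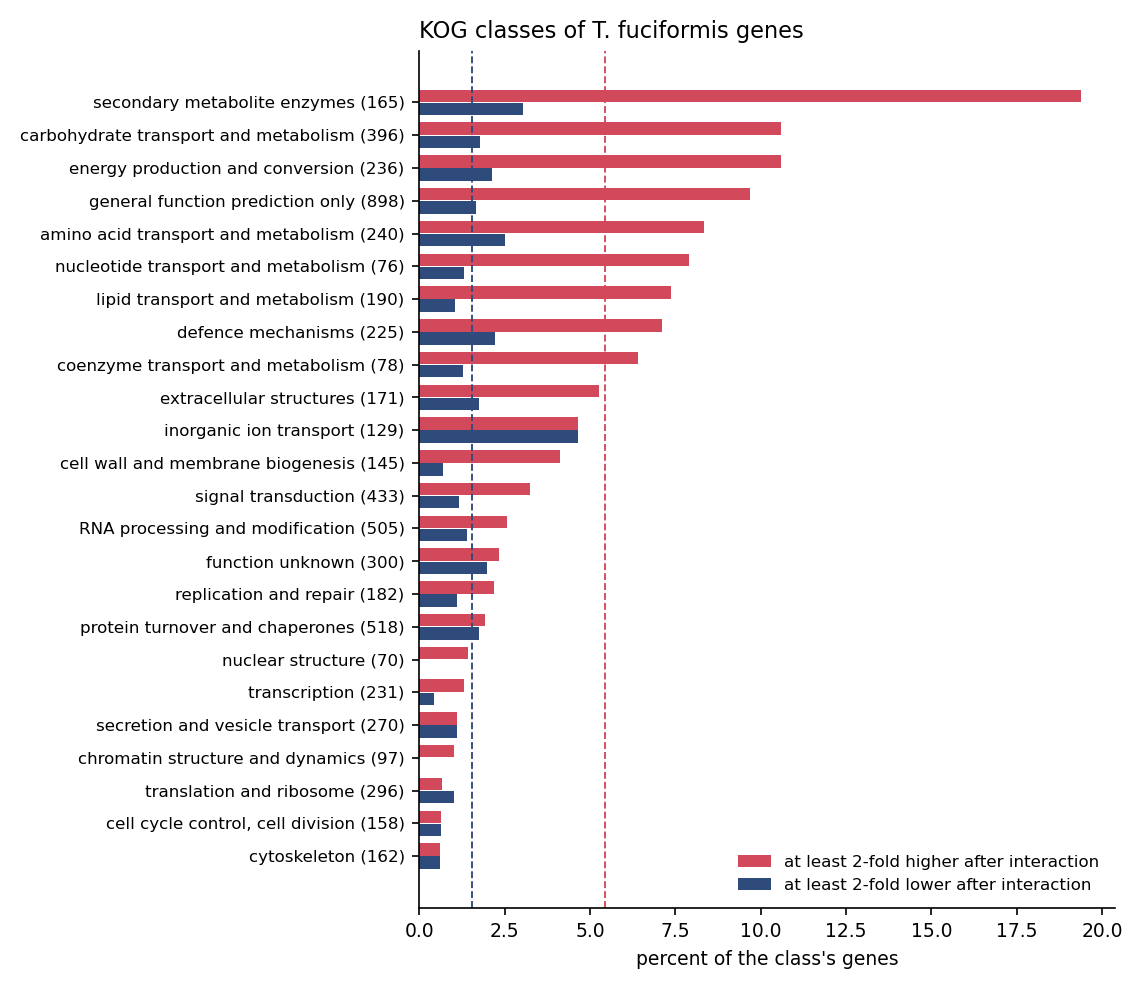
Percent of the genes of each KOG class that were at least 2-fold higher (red, upper bar) or at least 2-fold lower (blue, lower bar) after interaction than alone, for the 24 classes with at least 20 genes, whose gene numbers stand in parentheses. The dashed lines mark 5.45% and 1.56%, the shares among all genes with a KOG hit, and the bar of secondary metabolite enzymes reaches 19.4%.

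Genes without a SwissProt name held most of the large ratios. Of 3489 such genes, 131 passed 4-fold as higher and 64 as lower. The median was 0.07, and of all 8930 genes 181 (2.03%) and 70 (0.784%) passed. Unnamed genes were also lower in level, with a median mean level of 11.9 against 61.2 for named genes. They made up 279 of the 356 genes listed at 0 alone and 164 of the 186 listed at 0 after interaction. Among genes with a mean level of at least 10, 81 of 1828 unnamed and 95 of 4582 named genes were at least 2-fold higher. Of the 3489 genes, 1563 had no Nr hit either, with a median of 0.15, 92 at least 4-fold higher and 49 lower. The examples here were chosen after the table had been seen. CL7747, whose Nr hit is a hypothetical protein of Tremella mesenterica, had 357 rescaled FPKM after interaction, 438 in the dual mycelia and 15.7 alone, a log2 ratio of 4.42. CL5907, named as a riboflavin-aldehyde forming enzyme by its Nr hit, had 2818 after interaction, 1709 in the dual mycelia and 331 alone, a ratio of 3.09. Unigene10733, with an ABM domain, had 27.3 after interaction, 519 in the dual mycelia and 1.51 alone. CL7747 and CL5907 were thus high in both libraries with a partner, and Unigene10733 was far highest in the dual mycelia. CL6392, with an alpha/beta hydrolase domain, had 10.6 after interaction, 524 in the dual mycelia and 0.220 alone. Unigene17388, with no hit, had 11.4 after interaction and was listed at 0 in the dual mycelia and alone. Among those that were lower, Unigene17205 had 8.07 after interaction, 6.28 in the dual mycelia and 41.8 alone, and Unigene8552 had 2.44 after interaction, was listed at 0 in the dual mycelia and had 16.5 alone. The most abundant gene without a name, CL7690, had 11231 after interaction, 15773 in the dual mycelia and 10731 alone.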

How the data were processed

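RNA of the mycelia was isolated with Trizol and made into libraries by Illumina protocols, per the labels. The instrument was an Illumina HiSeq, per the design text of the series. The authors deposited 1 table of FPKM values for 42507 unigenes in 5 libraries, with their hits in SwissProt, Nr, KOG and InterPro per the file headers. The assembler, aligner, counting tool and depth were not given in the sources used here, and FPKM values keep no counts, so no interval could be given. All 5 value columns belong to the 5 samples, and 0 other value columns were present. No reference sequence was used here.

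T. fuciformis unigenes were chosen on the 2 T. fuciformis and the 2 A. stygium single-fungus libraries, as described above. Their values were rescaled to 1000000 per library, and contigs of 1 cluster were summed. A cluster took the SwissProt name with the lowest e-value among its contigs, and 562 genes had contigs with more than 1 entry. Names were used up to the highest e-value in the table, 1e-05, and 3479 names had an e-value of at most 1e-20. In 16 clusters contigs of both fungi occurred, and only those of T. fuciformis were summed. The log2 ratio used a pseudocount of 1.

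Genes named in the text were the 15 largest increases and the 15 largest decreases among named genes with a level of at least 10 in 1 of the 2 libraries, 1 per SwissProt entry, the 15 most abundant genes, and from each list the most abundant member and the members of at least 10 with the highest and the lowest ratio. Some of these are left out. Genes named outside this rule were chosen after their values were seen. The members and the lists were chosen with earlier results of these data known, and the search words of the lists were narrowed after the table was seen. Other pseudocounts, level minimums, ways of summing contigs, scalings and assignments were tried. Calculations used Python 3.11.15 with pandas 2.3.3 and numpy 2.4.6, figures matplotlib 3.10.9, and the ratio step was tested on simulated data with 200 altered genes. With 1 library per group no p-value is given.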

Additional observations from a re-analysis of the deposited data

Results flagged for a closer look

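Unigenes outside the comparison also had values in the T. fuciformis libraries. Unigenes assigned to A. stygium made up 0.0626% of the summed FPKM after interaction, slightly above the 0.0535% in T. fuciformis alone. The 810 unigenes that reached 1 FPKM in a single-fungus library but were assigned to neither fungus made up 0.591% after interaction and 0.589% alone. The 7676 unigenes below 1 FPKM in all 4 single-fungus libraries made up 0.146% after interaction and 0.120% alone. All 3 shares were higher after interaction, by small amounts that could not be set against a spread between replicates.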

How the results depend on the processing

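No paired analysis was possible because each group had 1 library, and for the same reason no replicate could be left out. Single genes were followed over the alternatives only for the 150 genes of the naming rule given above. None of these with a log2 ratio of at least 1 in size changed its direction. Where contigs were not all summed, only the most abundant contig or partial sum of a cluster was followed. Other contigs could go the other way. In CL89, which was lower as a sum, CL89.Contig2 had 2.47 after interaction and 1.15 alone, a ratio of 0.69. The e-value, mean-level and single-entry alternatives were not applied to single genes, and other genes were not followed. The counts of genes past a fold depended on low values and on the sums of contigs. Against 181 genes at least 4-fold higher and 70 lower, a pseudocount of 0.1 gave 553 and 228, a pseudocount of 5 gave 36 and 0, a level of at least 10 in 1 library gave 62 and 4, single contigs gave 373 and 165, sums of contigs with the same SwissProt entry gave 322 and 128, and FPKM as deposited gave 98 and 29. Assigned on the libraries grown alone, 56 genes were at least 4-fold higher. At 2-fold, against 851 higher and 356 lower, a pseudocount of 5 gave 186 and 88, a level of at least 10 gave 215 and 82, single contigs gave 1598 and 807, and sums by entry gave 1381 and 649, while assignment on the libraries grown alone gave 262 higher. The median of all genes ran from -0.06 to 0.04 over the alternatives.

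Of the list medians recomputed, 605 moved by under 0.25 and 12 by more. That of oxygenases was 0.41 without the genes named isopenicillin N epimerase. The sugar transporter median of 0.61 became 0.30 with a pseudocount of 5, 0.25 with a level of at least 10 in 1 library, 0.21 with a mean level of at least 10 and 0.23 with assignment on the libraries grown alone, where that of uncharacterized and vitamin-type transporters became 0.18. With names of an e-value of at most 1e-20 or clusters of a single entry, phosphate and sulfate acquisition had 1.28 and starch breakdown 0.62, and starch breakdown had 0.34 with a level of at least 10. Transposons had 0.63 with the e-value limit and P450 enzymes 0.22 with single-entry clusters. The mean-level, single-entry and epimerase alternatives were chosen after seeing the data. In 9 of the 44 lists the median changed sign under some alternative, and in each its size as reported was at most 0.19. Among named genes, CL1645, CL1368, CL2916, CL5382, CL4991 and CL2909 had ratios that depended on which contigs were summed or assigned. With a pseudocount of 5 the ratio of Unigene3520 became 2.53, CL3588 2.17, Unigene10617 2.08, Unigene3062 1.84, Unigene10098 -1.07 and CL1060 -1.44. Levels below about 10 are the least certain, since the depth is unknown, a member listed at 0 can be a failed estimate, and 1 library a group leaves the error of every value unknown.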
